A study of Homo sapiens with 18 samples.

Results

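The transcripts described here belong to the G1 phase of the cell cycle: the D cyclins CCND1, CCND2 and CCND3, the E cyclins CCNE1 and CCNE2, the kinase CDK6, and the CDK inhibitors CDKN1A, CDKN1B, CDKN2B and CDKN2C. The 10 genes were chosen by symbol for their function, with earlier results of these data known, so the choice was not blind to the values. All 10 had a row among the 40266 gene symbols of the table. RNA was sequenced from Panc1 and Panc89, human lines of pancreatic ductal adenocarcinoma (PDAC). Panc1 comes from a primary tumour and served as the mesenchymal-like model, and Panc89 comes from a lymph node metastasis and served as the epithelial model. Each line was measured as parental cells, as Holoclone cells and as Paraclone cells, with 3 replicates in each of the 6 groups and 18 libraries in all. All cells grew in the same medium with fetal calf serum and received no drug. A Holoclone is a tight, regular colony held to be rich in cancer stem cells, and a Paraclone is a loose colony of larger, more differentiated cells. Each Holoclone or Paraclone group is 1 clone grown from a single cell, and its replicates are different passages of that clone, so the p-values measure the spread between passages and say nothing of other clones. A difference between clone types and a difference between the particular clones cannot be told apart.

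D cyclins bind CDK4 or CDK6 when growth signals are present, and the active pair starts to phosphorylate the retinoblastoma protein, which releases E2F transcription factors. E2F then drives the E cyclins, which activate CDK2 and carry the cell into S phase. The inhibitors fall into families: the INK4 proteins, among them CDKN2A (p16), CDKN2B (p15) and CDKN2C (p18), bind CDK4 and CDK6 alone, whereas the CIP/KIP proteins CDKN1A (p21) and CDKN1B (p27) act on cyclin-CDK2 complexes and also take part in assembling D cyclin complexes. Loss of the INK4 locus on chromosome 9p21 is among the most common events in PDAC.

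Values are given as TPM, transcript abundances that sum to nearly the same total in each library and are scaled by transcript length, so that levels of different genes can be compared within a library. Differences are given on the scale of log2(TPM + 1), where a gene with little signal shows less change than its TPM do, and a gene was called when its adjusted p, from limma over 16093 genes, was under 0.05. The depth of the libraries is unknown, since the table holds no counts. The lines matched their labels in VIM and CDH1, though not in every marker. VIM, an intermediate filament of mesenchymal cells, had 3779 ± 675 TPM (SD, n = 3) in parental Panc1 and 0.0653 ± 0.0374 TPM in parental Panc89 cells. CDH1, the epithelial cadherin, had 1.35 ± 0.569 and 75.3 ± 2.32 TPM. FN1, another mesenchymal marker, went the other way, with means of 0.213 and 3.60 TPM. Of 6 epithelial markers, 4 were called higher and 1 lower in parental Panc89 than in parental Panc1 cells. Of 4 mesenchymal markers, 1 was higher and 2 were lower, where 66% of all genes were called. Of 10 markers of other cell types, 6 to 8 stayed under 1 TPM in every library of a group, and their summed level ran from 36.0 to 44.8 TPM in Panc89 Holoclone and from 125 to 152 TPM in Panc1 Paraclone cells. Most of that sum came from CD68, COL1A1 and PECAM1, and the leukocyte gene PTPRC stayed at or below 0.956 TPM; the part of these genes in the results was not tested. In bulk RNA, fewer cells in a cycle phase and less RNA per cell cannot be told apart.

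**Figure D1:**
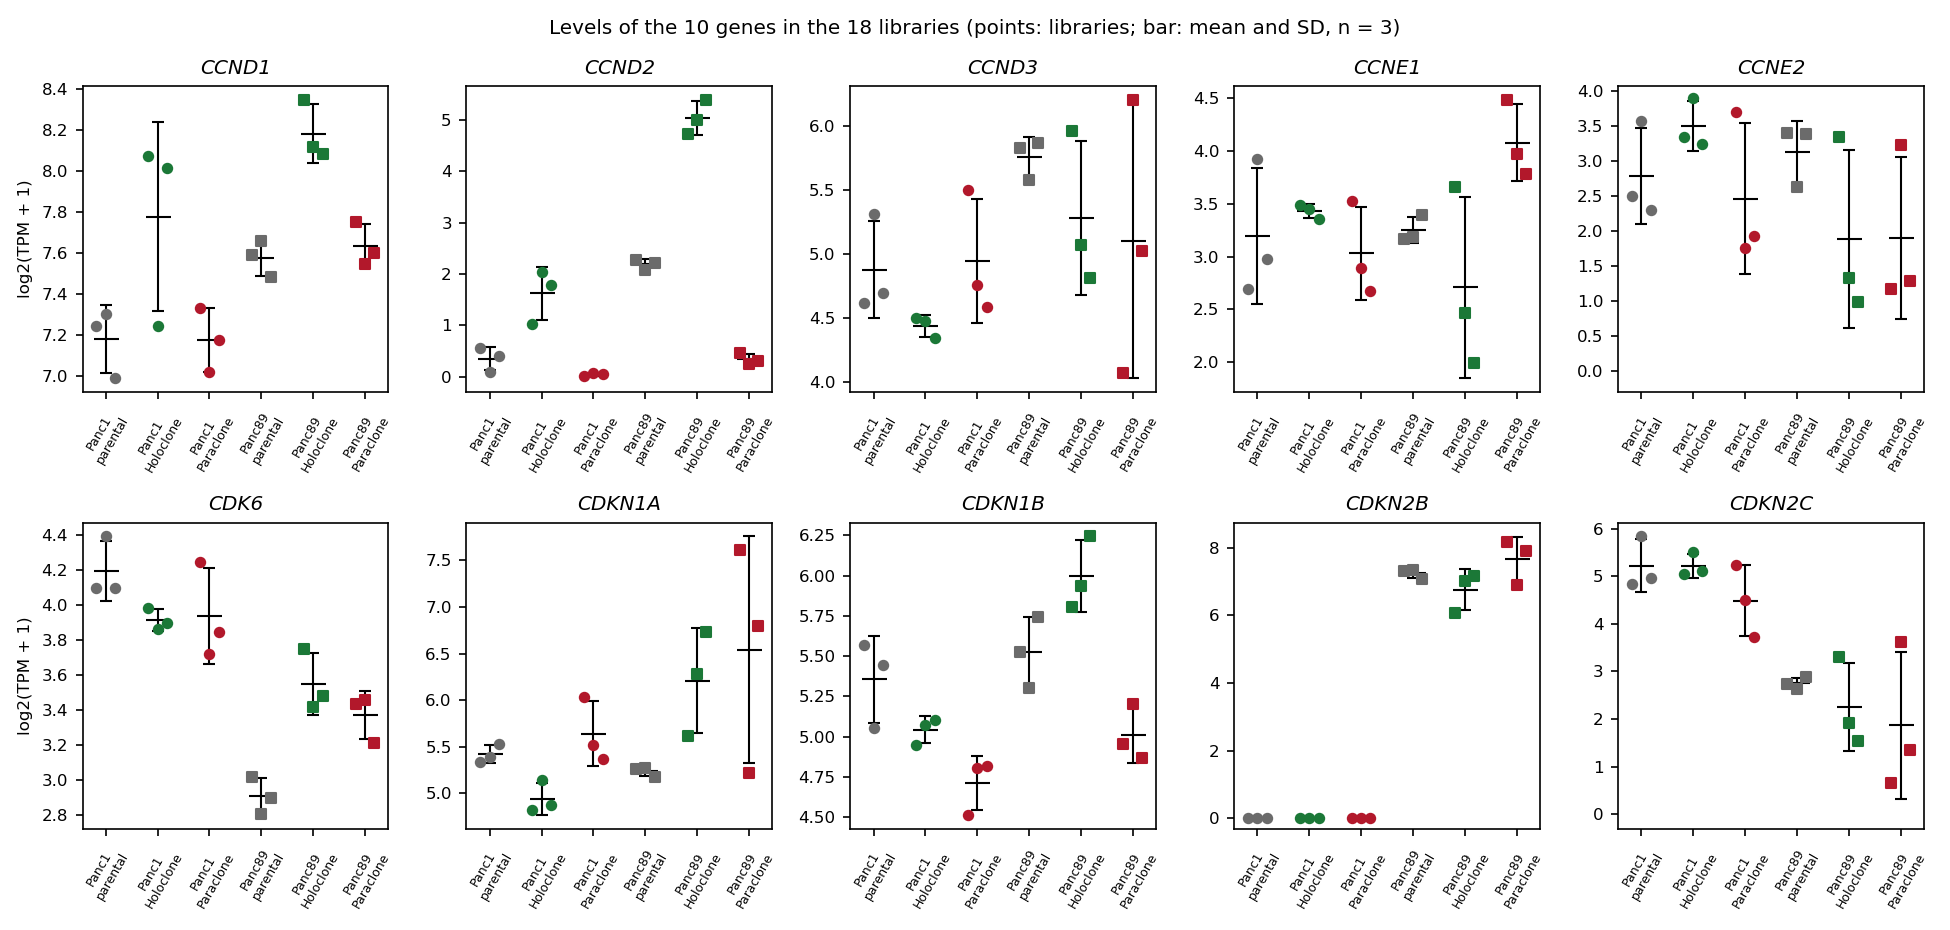
Level of each of the 10 genes in every library, as log2(TPM + 1) on the vertical axis, against the 6 groups. Points are libraries, circles Panc1 and squares Panc89, and the bars give the mean and SD of 3 libraries. CCND2 was highest in the Holoclone group of each line, and CDKN2B was at 0 in the 9 Panc1 libraries.

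Holoclone and Paraclone cells of a line are the comparison the study was built around, since it asks what sets stem-like and differentiated clones apart. CCND2 and CCND1 were higher in Holoclone than in Paraclone cells in both lines. In Panc89, CDKN1B was also higher in Holoclone cells, and CCNE1 and CDKN2B were lower. Of the 10 genes, 2 were called in Panc1, both higher in Holoclone cells, where 37.3% of all tested genes were called in either direction and 27.4% as higher, and 5 were called in Panc89, 3 higher and 2 lower, where 35.7% were called. Read against these backgrounds, the 10 genes as a set were not called more often than others in Panc1, and 5 of 10 is too small a count to set Panc89 apart. The Holoclone against Paraclone change itself differed between the lines for 3 of the 10 genes, CCND2, CCNE1 and CDKN1B, where 35.1% of all tested genes passed that test. The median difference of the 10 genes was 0.37 in Panc1 and 0.18 in Panc89 on the log2 scale, beside 0.19 and 0.09 for all tested genes.

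The median of all genes in Panc1 moved from 0.19 to 0.01 under upper quartile scaling, and the share of called genes that were higher in Holoclone cells went from 73.3% to 51.3%. In Panc89 the median moved from 0.09 to 0.01 and the share from 62.8% to 52.5%. Differences of the size of CCND1's therefore have to be read against that shift. For this comparison, scaled values are given for CCND1 and CDKN1B, and other genes named below are given without them.

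**Figure D2:**
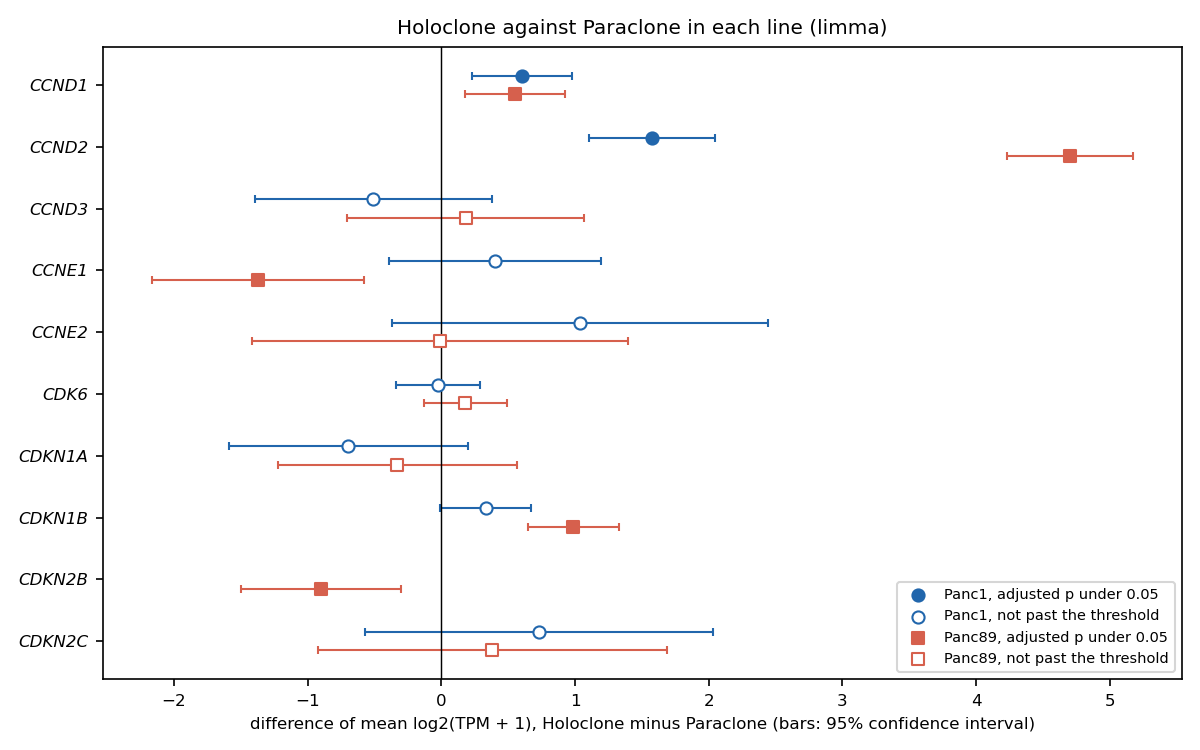
Difference of mean log2(TPM + 1), Holoclone minus Paraclone, for each gene in Panc1 (circles) and Panc89 (squares), with 95% confidence intervals from limma. Filled symbols passed an adjusted p of 0.05; CDKN2B has no Panc1 symbol because it was at 0 there. CCND2 has the largest difference of the 10 in each line, 1.58 in Panc1 and 4.70 in Panc89.

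CCND2 (chr12:4269771-4305353, plus strand, positions here and below from GENCODE 44 on GRCh38) encodes cyclin D2. In Panc89 it had 25.6, 30.8 and 41.0 TPM in the Holoclone libraries, 3.84, 3.24 and 3.64 TPM in the parental libraries and 0.381, 0.188 and 0.230 TPM in the Paraclone libraries. The 3 groups did not overlap, and the Holoclone mean was 9.08 times the parental mean. In Panc1 it had 1.05, 3.10 and 2.46 TPM in the Holoclone libraries, 0.465, 0.0717 and 0.324 TPM in the parental libraries and 0.0143, 0.0456 and 0.0343 TPM in the Paraclone libraries. The same order of groups, Holoclone over parental over Paraclone, was thus seen in both lines, at a far lower level in Panc1, where the parental and Paraclone libraries are close to the lower end of the scale.

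The Holoclone minus Paraclone difference of CCND2 was 4.70 ± 0.22 (SE) in Panc89, with an adjusted p of 4.08e-10. In Panc1 it was 1.58 ± 0.22, with an adjusted p of 4.93e-05. The difference between these changes was 3.12 ± 0.31 on the log2 scale, with an adjusted p of 1.88e-06, and no library left out in turn ended any of the 3 calls. The sizes depend on the pseudocount, because CCND2 is near 0 in Panc1: with 0.1 in place of 1 the differences were 4.01 in Panc1 and 6.48 in Panc89, and the changes differed by 2.47 (adjusted p 0.00477). As ratios of mean TPM, Holoclone over Paraclone was 70.2 in Panc1 and 122 in Panc89. Only 9 of the 18 libraries had at least 1 TPM of CCND2, all of them in the Panc1 Holoclone, Panc89 parental and Panc89 Holoclone groups, so the gene entered the test through the groups in which it is high.

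An antisense gene, CCND2-AS1, overlaps CCND2 on the opposite strand over 6482 bases. It had 2.08 ± 0.558 TPM (n = 3) in Panc89 Holoclone cells, 0.354 ± 0.206 TPM in parental and 0.0717 ± 0.0462 TPM in Paraclone cells, and in Panc1 0.468 ± 0.124, 0.337 ± 0.0824 and 0.0799 ± 0.0129 TPM in the same order. The group order was that of CCND2, at a lower level in Panc89. The libraries were stranded, but whether the quantification used the strand is not given in the sources used here, so reads of the pair may not be fully told apart. Another protein-coding gene, ENSG00000285901, overlaps CCND2 on the same strand over 31592 bases and has no row. The strand cannot tell its reads from those of CCND2. CCND2-AS1 was named after its values were seen.

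CCND1 (chr11:69641156-69654474, plus strand), cyclin D1, was the main D cyclin in every group. Its TPM in Panc89 were 325, 276 and 270 in Holoclone, 192, 201 and 178 in parental and 215, 186 and 193 in Paraclone cells. All Panc89 Holoclone libraries were above all others of that line. In Panc1 they were 269, 151 and 257 in Holoclone, 151, 157 and 126 in parental and 160, 129 and 143 in Paraclone cells, and the second Holoclone library lay among the other groups. Holoclone minus Paraclone was 0.60 ± 0.18 in Panc1 (adjusted p 0.0133) and 0.55 ± 0.18 in Panc89 (adjusted p 0.0230). After upper quartile scaling the values were 0.36 (adjusted p 0.122) and 0.44 (adjusted p 0.0503), so both calls were lost.

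The CCND1 call in Panc1 was also lost without Holoclone replicate 1 (0.45, adjusted p 0.0741), without Holoclone replicate 3 (0.48, adjusted p 0.0707) or without Paraclone replicate 2 (0.52, adjusted p 0.0612). The call in Panc89 was lost without Holoclone replicate 1 (0.47, adjusted p 0.0778), without Paraclone replicate 2 (0.50, adjusted p 0.0557) or without Paraclone replicate 3 (0.53, adjusted p 0.0646). The direction was kept each time. LTO1, which overlaps CCND1 by 1399 bases on the opposite strand, had between 14.3 and 39.6 TPM over the 18 libraries.

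CCND3 (chr6:41934934-42050357, minus strand), cyclin D3, varied widely between replicates in Panc89. It had 61.2, 32.7 and 27.1 TPM in Holoclone, 55.8, 46.9 and 57.3 in parental and 15.8, 72.7 and 31.6 TPM in Paraclone libraries. In Panc1 it ran from 19.3 to 44.3 TPM. The lowest and the highest value of Panc89 were both Paraclone replicates. Holoclone minus Paraclone was −0.51 in Panc1, with a 95% confidence interval from −1.39 to 0.38, and 0.18 in Panc89, with an interval from −0.70 to 1.07.

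Summed over the D cyclins, Panc89 Holoclone cells had 363 ± 41.8 TPM, against 247 ± 7.30 in parental and 238 ± 17.9 TPM in Paraclone cells. Panc1 had 248 ± 63.9, 174 ± 22.1 and 175 ± 25.9 TPM in the same order. CCND1 took 76.9% to 90.2% of the sum on average, depending on the group. CCND2 took 9.13 ± 2.95% in Panc89 Holoclone cells, 1.45 ± 0.138% in parental and 0.113 ± 0.0472% in Paraclone cells, and 1.00 ± 0.714% or less in Panc1. Even where it was highest, cyclin D2 was therefore a minor part of the D cyclin transcripts.

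**Figure D3:**
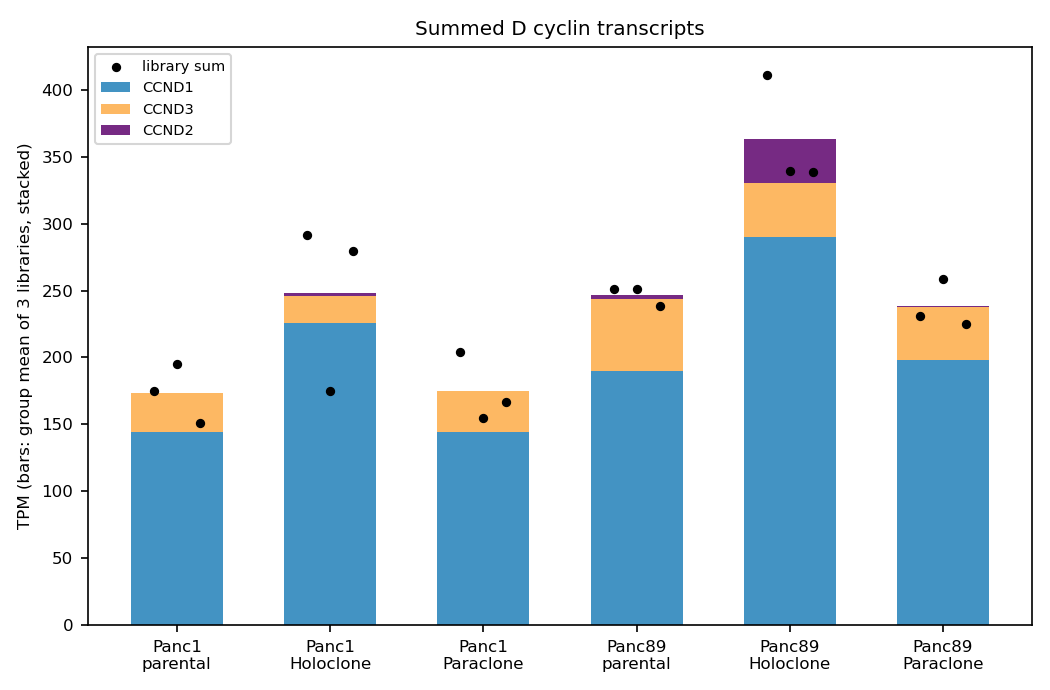
TPM of CCND1, CCND3 and CCND2 stacked as the mean of 3 libraries per group, with each library's sum as a black point; the axis starts at 0. The Panc89 Holoclone bar is the highest, and the CCND2 layer is visible mainly there.

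CCNE1 (chr19:29811991-29824312, plus strand), cyclin E1, was lower in Panc89 Holoclone than in Panc89 Paraclone cells. It had 11.7, 4.52 and 2.98 TPM in the Holoclone, 7.99, 8.10 and 9.49 in the parental and 21.4, 14.7 and 12.8 TPM in the Paraclone libraries, and no Paraclone library overlapped the other groups. The difference was −1.37 ± 0.37, with an adjusted p of 0.00925. It was −1.01, with an adjusted p of 0.0535, without Holoclone replicate 3. Over all 18 alternative settings of the limma fit, this call was lost in 2, with adjusted p up to 0.0940. In Panc1 the TPM were 10.2, 9.96 and 9.26 in Holoclone and 10.5, 6.43 and 5.38 in Paraclone libraries, which overlap. The Panc1 difference was 0.40, with a 95% confidence interval from −0.39 to 1.20. The changes in the lines differed by −1.77 ± 0.53 (adjusted p 0.0162), a call that no library left out in turn ended.

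CCNE2 (chromosome 8), cyclin E2, had the largest error of the 10 genes in the fit over all groups, although CDKN2C spread more within Panc89 Paraclone cells (SD 1.54 against 1.15 on the log2 scale). Its TPM were 4.66, 10.8 and 3.90 in parental Panc1, 9.12, 14.0 and 8.44 in Panc1 Holoclone, and 12.0, 2.37 and 2.78 in Panc1 Paraclone cells. In Panc89 they were 9.52, 5.14 and 9.38 in parental, 9.09, 1.505 and 0.983 in Holoclone, and 1.25, 8.35 and 1.44 in Paraclone cells. Within the Panc1 Paraclone and both Panc89 clone groups, a single library was far above the others. The Holoclone minus Paraclone difference was 1.04 in Panc1, with a 95% confidence interval from −0.37 to 2.44, and −0.01 in Panc89, with an interval from −1.42 to 1.39. CCNE1 took from 48.9% of the E cyclin transcripts in Panc1 Holoclone cells to 82.7% in Panc89 Paraclone cells, with SDs between 5.03 and 16.6 percentage points.

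The replicates differed in the level of cell cycle genes. The S-phase level of a library within its group was taken as the median deviation, on the log2 scale, of 42 S-phase genes of the Seurat list from their group means; none of the 10 genes was among the 42. In 4 libraries it was above 0.5: Panc1 parental replicate 2 (0.65), Panc1 Paraclone replicate 1 (0.82), Panc89 Holoclone replicate 1 (0.99) and Panc89 Paraclone replicate 2 (1.18). MKI67, a marker of cycling cells, had 33.1 TPM in that Panc89 Paraclone library and 2.43 and 4.61 TPM in the others of its group. Genes of the G2/M list went the same way there, with a median of 0.74 from their mean over all libraries against −1.87 and −1.44, so the level is not one of S phase alone. These libraries were picked by their S-phase genes, so what follows is a description with no test.

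In all 4 groups with such a library, it had the highest CCNE2, CCND3, CDKN2C and CDK6 of the 3 replicates. CCNE1 was highest in 3 of the 4, all but Panc89 Paraclone, and CCND1 was highest in 3 and lowest in the other. CDKN2B was lowest in both Panc89 clone groups. CCND2 was lowest there in 4 of 4 groups, though all its values were under 0.5 TPM in 3 of these groups, all but Panc89 Holoclone. CDKN1B was lowest in 3 of 4 and highest in the other. CDKN2C is known, like the E cyclins, as a gene whose transcript follows E2F activity, and CDKN1A as one that is raised in cells that leave the cycle. CDKN1A was lowest in the high library of both Panc89 clone groups, 47.9 against 76.7 and 105 TPM in Holoclone and 36.1 against 194 and 110 TPM in Paraclone cells, but highest in that of Panc1 Paraclone, with 64.5 against 44.8 and 40.3 TPM.

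**Figure D4:**
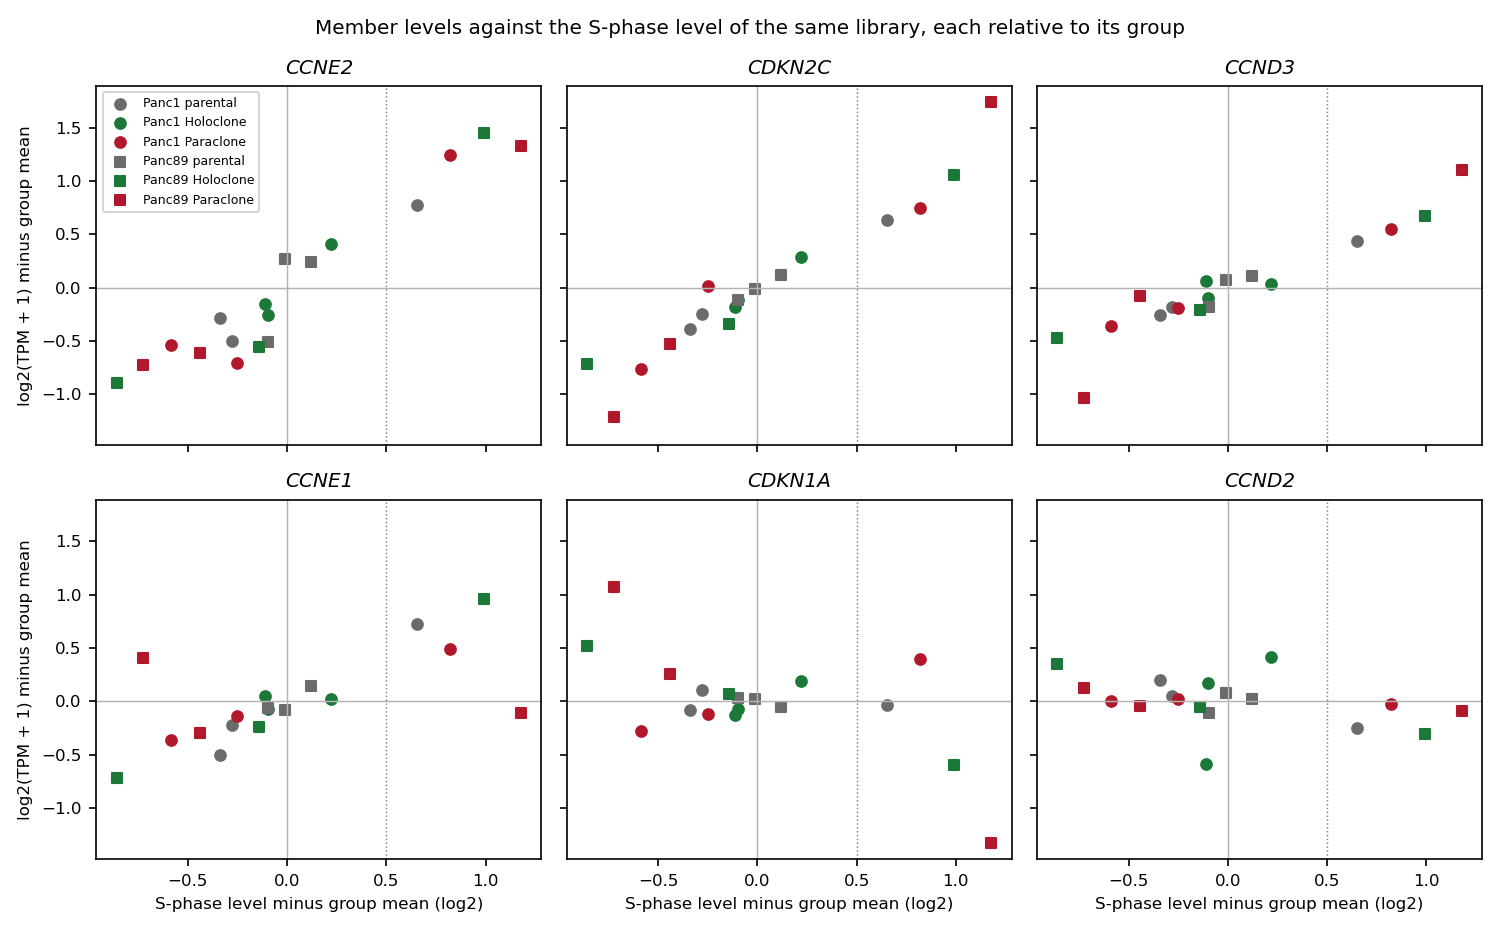
Deviation of 6 of the genes from their group mean, in log2(TPM + 1), against the deviation of the S-phase level of the same library from its group; each point is 1 of the 18 libraries, coloured by cell variant, with circles for Panc1 and squares for Panc89. The 4 libraries to the right of the dotted line at 0.5 hold the highest CCNE2, CDKN2C and CCND3 of their groups.

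Because of these libraries, each count was repeated without them, an alternative chosen after seeing the data. In Panc1, 5 of the 10 genes were then called between Holoclone and Paraclone cells, with 49.3% of all genes called, and CCNE2 (1.66), CDKN2C (1.10) and CCNE1 (0.65) were added. The library left out in Panc1 was a Paraclone one, in which these 3 genes were highest, and no Holoclone library was left out, so the choice itself raises these differences and they are given with no p. In Panc89, 6 were called, with 47.7% of all genes called, and 1 library was left out of each clone group: CDKN1A (−0.70) and CDKN2C (0.72) were added and CCND1 was lost (0.42, adjusted p 0.136). The library left out of each Panc89 clone group had the lowest CDKN1A and the highest CDKN2C of its group. The choice itself therefore moves these differences, which were −0.33 and 0.38 with all libraries, and they too are given with no p. CCND2, CCNE1, CDKN1B and CDKN2B kept their calls in Panc89. The difference between the lines was then called for 5 genes, where 45.5% of all genes were, and it shares the uneven choice in Panc1. Groups with 1 library left out keep 2 libraries.

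With the S-phase level of a library within its group as a covariate, the other alternative added, 5 genes were called in each line, where 45.9% of all genes were called in Panc1 and 44.2% in Panc89, and 6 for the difference, where 43.2% were. In that fit CCND3 (−0.52) was called lower and CCNE2 (1.02) and CDKN2C (0.72) higher in Panc1 Holoclone cells. These differences were −0.51, 1.04 and 0.73 in the main fit, so they hardly moved and their error became smaller. The covariate is a deviation within a group, so it does not adjust for a difference in S-phase level between groups. It was added after seeing the data, and these calls are given with no p. CCND2 was called in both lines under both alternatives.

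Among the 10 genes, 7 had an entry among the promoters of the RefSeq table, with 250 bases before and 50 bases after a start on GRCh38.p14; CCND1, CCND2 and CCNE2 had none. The windows were searched on both strands for E2F words (TTCCCGC with the variants TTGGCGC plus TTCGCGC plus TTGCCGC), the GC box (GGGGCGGGG), the E-box CACGTG and the cyclic AMP response word TGACGTCA. E2F words were found in 13% of all 35116 promoters and GC boxes in 15.7%. The E-box, which reads the same on both strands, was in 7.26% and the cyclic AMP word in 1.85%. The genes shown are those whose level was highest in the high S-phase library in at least 3 of 4 groups and whose window held a word at more than one place, with the stretch closest to a start where there were several; capitals mark the matched words, which can lie on either strand, and a match is a description of the letters only. The CDKN2C stretch is chr1:50968560-50968693, plus strand, with E2F words at offsets −131 and −34 from the start. No other window of these genes held an E2F word, the other CDKN2C windows included. The CCNE1 stretch is chr19:29811770-29811869, plus strand, with GC boxes at −206 and −145. The CCND3 stretch is chr6:41941809-41941895, minus strand, with GC boxes at −72 and −14.
CDKN2C: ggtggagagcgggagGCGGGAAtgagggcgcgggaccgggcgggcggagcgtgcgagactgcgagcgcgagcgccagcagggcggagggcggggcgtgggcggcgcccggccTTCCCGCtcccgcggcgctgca
CCNE1: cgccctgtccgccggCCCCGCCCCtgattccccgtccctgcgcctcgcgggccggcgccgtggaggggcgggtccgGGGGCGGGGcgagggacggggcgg
CCND3: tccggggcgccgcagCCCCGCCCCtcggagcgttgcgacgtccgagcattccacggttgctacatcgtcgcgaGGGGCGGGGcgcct

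The windows of CDKN1A, CDKN1B and CDKN2B held none of the 4 kinds of word, which says only that these letters are not within those 300 bases.

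CDK6 (chr7:92604921-92836573, minus strand), a kinase partner of the D cyclins, differed between the lines. Its TPM in Panc1 were 16.2, 20.0 and 16.1 in parental, 14.9, 13.5 and 13.9 in Holoclone, and 17.997, 12.2 and 13.4 in Paraclone cells. In Panc89 they were 7.09, 5.98 and 6.45 in parental, 12.5, 9.69 and 10.2 in Holoclone, and 9.82, 10.002 and 8.27 in Paraclone cells. No Panc89 parental library reached any other group. Parental Panc89 against parental Panc1 cells gave −1.29 ± 0.15 (adjusted p 1.29e-06). Panc89 Holoclone cells were 0.64 ± 0.15 above Panc89 parental cells (adjusted p 0.00433) and Paraclone cells 0.46 ± 0.15 above them (adjusted p 0.0367), the latter lost on leaving out any library but Paraclone replicate 3 (0.41 to 0.54, adjusted p up to 0.115); both comparisons share the parental libraries.

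CDK4, the other partner of the D cyclins, was the more abundant kinase, and CDK6 made up 4.16% to 7.07% of their sum in Panc1 and 1.67% to 2.82% in Panc89 on average. CDK4 had 326 ± 16.8 TPM in Panc1 Holoclone, 233 ± 6.29 in parental and 192 ± 43.1 TPM in Paraclone cells, and in Panc89 473 ± 20.8, 385 ± 14.8 and 325 ± 47.7 TPM. Holoclone minus Paraclone of CDK4 was 0.78 ± 0.13 in Panc1 (adjusted p 0.000248). Its mean TPM was also higher in Panc89 Holoclone than in Panc89 Paraclone cells, and the test of that difference is not given here. For CDK6, Holoclone minus Paraclone was −0.02 in Panc1, with a 95% confidence interval from −0.34 to 0.29, and 0.18 in Panc89, with an interval from −0.13 to 0.49.

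CDKN1B (chr12:12685498-12722369, plus strand), the inhibitor p27, had 55.0, 60.2 and 74.8 TPM in Panc89 Holoclone, 45.0, 38.5 and 52.6 in parental, and 30.05, 35.8 and 28.2 TPM in Paraclone cells. In Panc1 it had 29.9, 32.7 and 33.4 TPM in Holoclone, 46.6, 32.2 and 42.6 in parental, and 21.9, 26.9 and 27.2 TPM in Paraclone cells. Paraclone libraries were the lowest of each line, without overlap. Holoclone minus Paraclone was 0.99 ± 0.16 in Panc89 (adjusted p 0.000188), and 0.88 after upper quartile scaling (adjusted p 0.000904). In Panc1 it was 0.33, with a 95% confidence interval from −0.01 to 0.67. The changes differed by 0.66 ± 0.23 between the lines (adjusted p 0.0342).

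That difference of CDKN1B was lost in 8 of the 12 fits that left out a library, namely Panc1 Holoclone replicates 1 and 2, Panc1 Paraclone replicates 2 and 3, Panc89 Holoclone replicates 2 and 3, and Panc89 Paraclone replicates 1 and 3, with adjusted p up to 0.0885. Against the parental cells, Paraclone cells were lower by −0.64 ± 0.16 in Panc1 (adjusted p 0.00709; 0.0653 after upper quartile scaling) and by −0.51 ± 0.16 in Panc89 (adjusted p 0.0335; 0.0577 after median-of-ratios scaling). The latter was lost without parental replicate 1 or 3 or Paraclone replicate 1 or 3, with adjusted p up to 0.159. Part of the CDKN1B locus, 10710 bases, overlaps GPR19 on the opposite strand, which had 0.303 to 5.18 TPM.

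CDKN1A (chr6:36676460-36687337, plus strand), the inhibitor p21 and a classical p53 target, had 27.2, 34.2 and 28.3 TPM in Panc1 Holoclone, 39.5, 40.9 and 45.0 in parental, and 64.5, 44.8 and 40.3 TPM in Paraclone cells. The Panc1 Holoclone libraries were the lowest of that line. In Panc89 it had 47.9, 76.7 and 105 TPM in Holoclone, 37.4, 37.5 and 35.3 in parental, and 194, 36.1 and 110 TPM in Paraclone cells, so a single Paraclone library lay at the parental level. Panc89 Paraclone was 1.30 ± 0.42 above parental cells (adjusted p 0.0400), a call lost on leaving out any library but Paraclone replicate 2 (0.77 to 1.96, adjusted p up to 0.210). Panc89 Holoclone was 1.26 ± 0.42 above Panc1 Holoclone cells (adjusted p 0.0149), lost without Panc89 Holoclone replicate 3 (1.00, adjusted p 0.0719). Holoclone minus Paraclone was −0.70 in Panc1, with a 95% confidence interval from −1.59 to 0.20, and −0.33 in Panc89, with an interval from −1.23 to 0.56.

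CDKN2B (chr9:22002903-22009305, minus strand), the inhibitor p15, was listed at 0 TPM in all 9 Panc1 libraries, and no fold against them is given. In Panc89 it was among the most abundant of the 10. The TPM there were 66.0, 129 and 143 in Holoclone, 158, 160 and 134 in parental and 287, 118 and 238 in Paraclone cells, and the groups overlap. Holoclone minus Paraclone was −0.90 ± 0.28 in Panc89 (adjusted p 0.0204). The call was lost without Holoclone replicate 1 (−0.56, adjusted p 0.102), without Paraclone replicate 1 (−0.65, adjusted p 0.112) or without Paraclone replicate 3 (−0.78, adjusted p 0.0846), and when only these groups were fitted (adjusted p 0.202). The 9 Panc1 libraries at 0 have no spread, and in the shared fit they lower the error of this gene.

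The neighbours of CDKN2B on 9p21 also differed between the lines. CDKN2A (chr9:21967752-21995301, minus strand), which encodes p16 and ARF, was at 0 in all Panc1 libraries and had 307 ± 55.7 TPM in parental Panc89 cells, 335 ± 47.1 in Holoclone and 437 ± 55.5 TPM in Paraclone cells. MTAP (chr9:21802636-21937651, plus strand), an enzyme of methionine salvage, had between 0.702 and 2.41 TPM in Panc1 and between 56.2 and 111 TPM in Panc89. CDKN2B-AS1, the antisense transcript of the locus, had 0.0783 to 0.267 TPM in Panc1 and 2.71 to 4.13 TPM in Panc89, and it covers all 6403 bases of CDKN2B on the other strand.

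Some genes farther out were expressed in both lines. KLHL9, whose start lies at −673.9 kb from that of CDKN2B, had 6.71 ± 0.617 TPM in parental Panc1 and 15.6 ± 1.84 TPM in parental Panc89 cells, and FOCAD, at −1351.0 kb, had 4.98 ± 0.467 and 15.4 ± 0.602 TPM. DMRTA1 on the other side had 0.617 ± 0.107 and 1.28 ± 0.109 TPM. HACD4 (0.122 ± 0.00837 against 3.33 ± 0.136 TPM) and ELAVL2 (0.0656 ± 0.0612 against 3.99 ± 0.470 TPM) were low in Panc1, and IFNE was under 1 TPM in all libraries and was not tested. All 8 tested neighbours were called higher in parental Panc89 than in parental Panc1 cells, with a median difference of 1.88 beside −0.18 for all tested genes. There 66% of all tested genes were called in either direction, and 41.6% of the called genes were higher. Between Panc89 Holoclone and Paraclone cells, FOCAD (−0.74 ± 0.11, adjusted p 7.19e-05), KLHL9 (−0.43 ± 0.13, adjusted p 0.0192) and CDKN2A (−0.39 ± 0.13, adjusted p 0.0347) were lower and HACD4 (0.99 ± 0.33, adjusted p 0.0284) was higher in Holoclone cells. In Panc1, FOCAD alone was called, higher in Holoclone cells by 0.44 ± 0.11 (adjusted p 0.00452). Between Holoclone and Paraclone cells, 35.7% of all tested genes were called in Panc89 and 37.3% in Panc1.

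**Figure D5:**
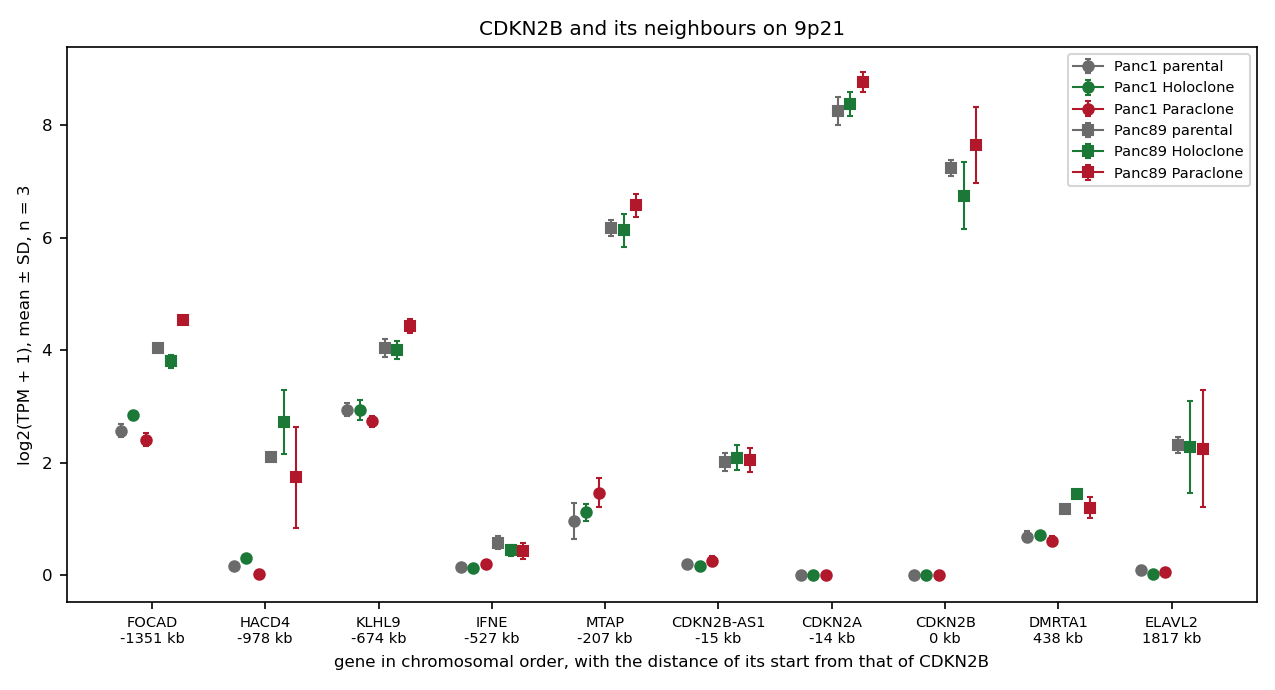
Mean and SD of log2(TPM + 1) over 3 libraries for CDKN2B and 9 neighbours, in the order of their starts along the chromosome and with the distance from the start of CDKN2B in kb; circles are Panc1, squares Panc89. CDKN2A and CDKN2B are at 0 in the Panc1 groups and MTAP is at most 2.41 TPM there, while FOCAD and KLHL9 are expressed in both lines.

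CDKN2C (chr1:50960745-50974634, plus strand), the inhibitor p18, was higher in Panc1, the reverse of CDKN2B. Its TPM in Panc1 were 27.5, 56.8 and 30.4 in parental, 31.8, 44.6 and 33.5 in Holoclone and 36.6, 21.7 and 12.3 in Paraclone cells. In Panc89 they were 5.71, 5.24 and 6.34 in parental, 8.90, 2.77 and 1.90 in Holoclone and 0.583, 11.2 and 1.54 in Paraclone cells. Every Panc1 library was above every Panc89 library. Panc89 minus Panc1 was −2.47 ± 0.61 between parental cells (adjusted p 0.00223), −2.97 ± 0.61 between Holoclone cells (adjusted p 0.000506) and −2.62 ± 0.61 between Paraclone cells (adjusted p 0.00161). Holoclone minus Paraclone was 0.73 in Panc1, with a 95% confidence interval from −0.57 to 2.03, and 0.38 in Panc89, with an interval from −0.92 to 1.68.

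Between the lines, 4 of the 10 genes were called in parental cells, where 66% of all tested genes were called: CCND2 and CDKN2B higher, CDK6 and CDKN2C lower in Panc89. Between Holoclone cells 7 were called, where 65.8% of all genes were called: CCND2, CDKN1A, CDKN1B and CDKN2B higher and CCNE2, CDK6 and CDKN2C lower in Panc89. Between Paraclone cells 5 were called, where 60.7% of all genes were called: CCND1, CCNE1 and CDKN2B higher and CDK6 and CDKN2C lower in Panc89. CCND2 had 1.84 ± 0.22 in the parental and 3.42 ± 0.22 in the Holoclone comparison, and 0.29 in the Paraclone comparison, with a 95% confidence interval from −0.18 to 0.76. With a pseudocount of 0.1 the Paraclone comparison gave 1.45 and was called (adjusted p 0.00731); the groups did not overlap, and the ratio of their mean TPM was 8.48, both under 0.5 TPM. After median-of-ratios scaling, which moved the median of all genes between parental cells from −0.18 to 0.02 and the share of higher genes among those called from 41.6% to 51.8%, 7 genes were called there, with CCND1 (0.64, adjusted p 0.00296), CCND3 (1.12, adjusted p 0.0162) and CDKN1B (0.41, adjusted p 0.0475) added as higher in Panc89. Without the 4 libraries of high S-phase level, 6, 8 and 6 genes were called between parental, Holoclone and Paraclone cells, where 71.7%, 72.4% and 65.7% of all genes were, and with the S-phase covariate 5, 9 and 7, where 71.5%, 71.1% and 66.7% were.

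Several of these calls were near the threshold. In the Holoclone comparison, CCNE2 (−1.61 ± 0.66, adjusted p 0.0425) and CDK6 (−0.37 ± 0.15, adjusted p 0.0390) were each lost on leaving out any library but Panc89 Holoclone replicate 1, with adjusted p up to 0.173 and 0.134, while the differences ran from −2.34 to −1.16 and from −0.47 to −0.30. CDK6 was also lost after upper quartile scaling (−0.26, adjusted p 0.0658). In the Paraclone comparison, CCND1 (0.46 ± 0.18, adjusted p 0.0341) ran from 0.38 to 0.54 and was lost without Panc1 Paraclone replicate 2 or 3 or Panc89 Paraclone replicate 1 or 3, with adjusted p up to 0.120. CCNE1 (1.05 ± 0.37, adjusted p 0.0236) ran from 0.84 to 1.30 and was lost without Panc1 Paraclone replicate 2 or 3 or Panc89 Paraclone replicate 1, with adjusted p up to 0.0961. CDK6 between Paraclone cells was −0.57 ± 0.15 (adjusted p 0.00328).

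Against their parental cells, Panc1 Holoclone cells had 2 genes called, CCND1 (0.60 ± 0.18, adjusted p 0.0382) and CCND2 (1.27 ± 0.22, adjusted p 0.00132), where 10.9% of all genes were called and 5.87% as higher. Panc1 Paraclone cells had 1, CDKN1B, lower, where 28.6% were called and 21.3% as lower. CCND1 in Panc1 Holoclone cells was lost on leaving out any library but Holoclone replicate 2 (0.45 to 0.87, adjusted p up to 0.182). With a pseudocount of 0.1, CCND2 was called lower in Panc1 Paraclone than in parental cells (−1.40, adjusted p 0.0218). Panc89 Holoclone cells had 4 called, all higher, where 24.7% of all genes were called and 16.1% as higher: CCND1 (0.61 ± 0.18, adjusted p 0.0194), CCND2 (2.85 ± 0.22, adjusted p 2.27e-07), CDK6 and CDKN1B (0.47 ± 0.16, adjusted p 0.0419). CCND1 was lost without parental replicate 1 or 3 or Holoclone replicate 1 (adjusted p up to 0.0708), and CDKN1B without parental replicate 1 or 2 or Holoclone replicate 2 or 3 (adjusted p up to 0.178) and under both scalings (adjusted p 0.143 and 0.135). Panc89 Paraclone cells also had 4, where 19.4% of all genes were called: CDK6 and CDKN1A higher, and CCND2 (−1.85 ± 0.22, adjusted p 2.85e-05) and CDKN1B lower. Upper quartile scaling moved the share of called genes that were higher from 25.6% to 47.4% for Panc1 Paraclone and from 65.2% to 51.3% for Panc89 Holoclone cells. Each pair of clone groups shares the parental libraries of its line, and the counts without the 4 libraries of high S-phase level were 4 and 2 in Panc1 and 8 and 9 in Panc89, where 18.4%, 36.9%, 38.3% and 38.8% of all genes were then called; in Panc1 Holoclone and Panc89 parental cells no library was left out, so these counts too come from an uneven choice. With the S-phase covariate they were 3 and 2 in Panc1 and 9 and 8 in Panc89, where 16.2%, 36.8%, 32.3% and 28% of all genes were called.

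The partners and targets of these genes were taken from lists chosen by function, again with earlier results of these data known. Counts of called genes stand beside 37.3% of all tested genes called in Panc1, 35.7% in Panc89 and 66% between parental cells, and nothing is read from a list as a whole. In Panc1, 27.4% of all tested genes were called as higher in Holoclone cells, which is 73.3% of the called genes. Of 13 further G1 kinases, partners and brakes, 5 were higher and 0 lower in Panc1 Holoclone than in Paraclone cells, with a median of 0.56, and 3 were higher and 3 lower in Panc89, with a median of 0.30. RBL1 (p107), a relative of the retinoblastoma protein, was higher by 1.59 ± 0.42 in Panc1 (adjusted p 0.00753), and MNAT1, of the CDK-activating complex, by 0.76 ± 0.12 (adjusted p 0.000113). In Panc89, CDKN1C (p57), the third CIP/KIP inhibitor, was lower by −2.04 ± 0.38 in Holoclone cells (adjusted p 0.000661), with 1.89 ± 1.01 TPM against 11.1 ± 4.78 TPM in Paraclone cells. CDK7, the kinase of that activating complex, was lower by −0.89 ± 0.14 (adjusted p 0.000158), and CCNH, its cyclin, higher by 0.58 ± 0.20 (adjusted p 0.0314). Between parental cells, 3 were higher and 3 lower in Panc89, and the other INK4 gene CDKN2D (p19) was lower there by −0.76 ± 0.28 (adjusted p 0.0253), as was CDKN1C by −1.09 ± 0.38 (adjusted p 0.0205).

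Of 10 genes of the E2F family, 4 were higher in Panc1 Holoclone cells and none was lower, and in Panc89 2 were higher and 1 lower, beside 37.3% and 35.7% of all genes. In Panc1, 27.4% of all genes were called as higher. E2F4, which mostly represses in resting cells, was higher in the Holoclone cells of both lines, by 0.97 ± 0.11 in Panc1 (adjusted p 5.12e-06) and by 0.70 ± 0.11 in Panc89 (adjusted p 0.000121). E2F3, an activator, was higher by 0.84 ± 0.14 in Panc1 (adjusted p 0.000199) and lower by −0.39 ± 0.14 in Panc89 (adjusted p 0.0352). E2F7, an atypical repressor, was higher by 1.37 ± 0.26 in Panc89 (adjusted p 0.000786). TFDP1, the dimer partner of the E2Fs, was higher in parental Panc89 than in parental Panc1 cells by 1.79 ± 0.30 (adjusted p 8.71e-05), and TFDP2, its relative, lower by −1.05 ± 0.13 (adjusted p 4.07e-06).

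Of 21 replication genes driven by E2F, 0 passed the threshold of the limma test in Panc1, with 1 at an unadjusted p under 0.05, and 1, the licensing factor CDT1 (1.42 ± 0.53, adjusted p 0.0482), in Panc89, and of 20 mitotic genes 0 passed in either line, with 0 and 1 at an unadjusted p under 0.05. Their medians were 0.64 and 0.81 for replication and 0.54 and 0.86 for mitosis, beside 0.19 and 0.09 for all genes.

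Of 6 genes for the turnover of cyclins and inhibitors, 0 were called in Panc1 by limma, with 0 at an unadjusted p under 0.05. In Panc89 CKS1B (0.72 ± 0.25, adjusted p 0.0334), which helps SKP2 to bind p27, and AMBRA1 (0.51 ± 0.15, adjusted p 0.0164), which directs the breakdown of D cyclins, were higher in Holoclone cells. Of 20 tested p53 targets, 5 were higher and 2 lower in Panc1 Holoclone cells, and 7 were higher and 2 lower in Panc89, beside the same 37.3% and 35.7%. GADD45A, a growth arrest gene, was higher by 1.82 ± 0.41 in Panc89 Holoclone cells (adjusted p 0.00251), where CDKN1A itself did not pass. FAS, the death receptor, was lower by −1.71 ± 0.28 in Panc1 Holoclone cells (adjusted p 0.000184).

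Of 16 transcription factors known to act on the 10 genes, 4 were higher and 3 lower in Panc1 Holoclone cells, and 2 were higher and 3 lower in Panc89, beside 37.3% and 35.7% of all genes. KLF4, which can raise CDKN1A, went in opposite directions, lower by −1.77 ± 0.33 in Panc1 Holoclone cells (adjusted p 0.000601) and higher by 1.87 ± 0.33 in Panc89 Holoclone cells (adjusted p 0.000415). SMAD3, which carries TGF-beta signals to CDKN2B, was lower by −1.12 ± 0.17 in Panc89 Holoclone cells (adjusted p 0.000107), and KLF6 by −1.76 ± 0.31 (adjusted p 0.000370). KLF5 (5.57 ± 0.22, adjusted p 3.66e-12) and KLF4 (3.99 ± 0.33, adjusted p 3.36e-08) were higher in parental Panc89 than in parental Panc1 cells, where 8 of the 16 were higher and 5 lower and 66% of all genes were called.

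The lists of cell state markers did not set Holoclone and Paraclone cells apart in one direction in both lines. Beside the counts that follow, 37.3% of all tested genes were called in Panc1 and 35.7% in Panc89. Of 6 epithelial markers, 3 were higher and 2 lower in Panc1 Holoclone than in Paraclone cells, and 4 were lower and none higher in Panc89. Of 4 mesenchymal markers, 1 was higher and 1 lower in Panc1, and 1 higher and 2 lower in Panc89. Of the 3 tested markers of other cell types, 1 was higher and 1 lower in Panc1 Holoclone cells, and all 3 were lower in Panc89 Holoclone cells. CD68, a macrophage gene that many other cells also express, was lower in Holoclone than in Paraclone cells, by −1.15 ± 0.22 (adjusted p 0.000758) in Panc1 and by −1.20 ± 0.22 (adjusted p 0.000580) in Panc89.

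For the 3 genes whose group means varied most within lines, the most alike genes were found by Pearson correlation over the 18 libraries, each line centred on its own mean. The points share clones and libraries, so the values are descriptions. CCND2 was most like SLC7A5 (r = 0.973), an amino acid transporter, TGS1 (0.972), an RNA cap methylase, and FAM181B (0.970). FAM181B is near the floor: it reached 1 TPM only in Panc89 Holoclone cells (1.12 to 1.74 TPM), through which it passed the filter. It was at 0 in Panc89 Paraclone cells. SLC7A5 had 2730 ± 185 TPM in Panc89 Holoclone, 1162 ± 147 in parental and 545 ± 16.6 TPM in Paraclone cells, and 368 ± 83.03, 278 ± 65.7 and 211 ± 18.9 TPM in Panc1, the group order of CCND2. CCNE2 was most like E2F2 (0.972), PCNA (0.960) and ZNF367 (0.958), and PCNA, the replication clamp, ranged from 37.2 to 205 TPM within Panc89 Holoclone cells alone. CDKN1A was most like IL24 (0.903), a cytokine, LRRC8A (0.899), a volume-regulated anion channel subunit, and LINC01133 (0.898). In Panc1, IL24 reached at most 0.0193 TPM and LINC01133 at most 0.231 TPM. The group means of LRRC8A ran there only from 11.9 to 13.4 TPM. These likenesses therefore rest mostly on the Panc89 libraries.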

How the data were processed

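RNA-seq values of 18 libraries were analysed, with line, cell variant and replicate taken from the sample labels. Reads were paired-end from a stranded mRNA kit. The authors estimated transcript abundance with kallisto 0.46.1 (version per the submitters' processing notes) on Ensembl transcripts of GRCh38, using tximport to obtain scaled TPM. Per gene symbol, 40266 in all, the table the authors deposited gives log2 of TPM plus 1. Converted back, TPM summed to between 985339 and 988066 per library. No counts are held, so depth and counting error are unknown.

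Groups were compared with limma 3.58.1 in R 4.3.3 (eBayes with trend) on all 18 libraries, with 1 mean per group, over the 16093 genes that reached 1 TPM in 3 or more libraries. P-values are two-sided and Benjamini-Hochberg adjusted, and the script was tested on simulated data. All 10 members passed the filter; CCND2 and CDKN2B reached 1 TPM in 9 libraries. Scaling, pseudocount, filter, groups fitted, thresholds, replicate block and each library were varied. S-phase genes came from Seurat 5.3.0. From each gene list the text names up to 3 of the called genes with the largest differences in a comparison, and all 9p21 neighbours. The members and lists were chosen with earlier results of these data known. Positions are from GENCODE 44. Same-numbered libraries were not paired by origin, and their deviations correlated from −0.318 to 0.190. The authors' assays on cells and animals were not analysed here.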

Additional observations from a re-analysis of the deposited data

Results flagged for a closer look

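The Holoclone against Paraclone change differed between Panc89 and Panc1 for 3 of the 10 genes by a limma test of the difference itself, where 35.1% of all tested genes passed the same test. For CCND2 the changes differed by 3.12 ± 0.31 (SE) on the log2 scale, with an adjusted p of 1.88e-06: it was higher in Holoclone cells in both lines. The size of that gap rests on the pseudocount, since CCND2 is near 0 in Panc1: with 0.1 in place of 1 it was 2.47 (adjusted p 0.00477), and the ratio of mean TPM, Holoclone over Paraclone, was 70.2 in Panc1 and 122 in Panc89. For CCNE1 they differed by −1.77 ± 0.53 (adjusted p 0.0162), with lower Holoclone values in Panc89 and no call in Panc1. For CDKN1B they differed by 0.66 ± 0.23 (adjusted p 0.0342), with a call in Panc89 and none in Panc1. Panc1 moved the same way, by 0.33 with a 95% confidence interval from −0.01 to 0.67. The CDKN1B difference between lines was lost in 8 of the 12 fits that left out a library, with adjusted p up to 0.0885.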

How the results depend on the processing

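Over all alternatives, 0 of the differences of single genes changed direction where called, 132 lost a call, 78 gained one and 1620 stayed on the same side. Counts are of the 10 genes called, in the order Panc1 Holoclone against Paraclone, then Panc89. Upper quartile and median-of-ratios scaling each left 1 in Panc1 and 0 between Panc1 Paraclone and parental cells (1 at an unadjusted p under 0.05), and median-of-ratios gave 7 between parental cells. Over all 16093 genes these scalings called 5154 and 5112 in Panc1, and 3801 and 3774 between Panc1 Paraclone and parental cells. Median-of-ratios called 10515 between parental cells. The main fit had called 6006, 4599 and 10623. A pseudocount of 0.1 gave 2 between Panc1 Paraclone and parental cells, where 4567 of all genes were called. With no filter on low values, 1 was called between Panc1 Holoclone and parental cells and 2 between Panc89 Paraclone and parental cells. Of all 29343 genes then tested, 1876 and 3284 were called. Fitting only the groups compared gave 3 in Panc89, 0 between Panc1 Holoclone and parental cells (2 at an unadjusted p under 0.05) and 1 between Panc89 Paraclone and parental cells, where calls over all genes fell from 5746 to 3377, from 1759 to 1322 and from 3120 to 2240 of 16093. A log2 difference over 1 left 1 and 2, with 3 between Paraclone cells of the lines, and 1, 0, 1 and 2 against parental cells. An adjusted p under 0.01 left 1 and 3, with 1 for the difference between lines, 4 and 3 between Holoclone and between Paraclone cells, and 1, 2 and 1 against parental cells (Panc1 Holoclone, Panc89 Holoclone, Panc89 Paraclone). Calls over all genes at these stricter thresholds are not given here, so nothing is read from these counts. Without the 4 libraries of high S-phase level, 5 were called in Panc1, 5 for the difference, and 4, 2, 8 and 9 against parental cells; with the S-phase level as a covariate, 5 and 6, and 2 (Panc1 Paraclone), 9 and 8 (Panc89 Holoclone and Paraclone) against parental cells. Both settings were added after seeing the data, and the libraries left out are uneven between groups. Their shares of all genes called stand with the results above. Why other counts moved was not tested.

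Leaving out each library in turn gave 1 to 2 in Panc1, 3 to 5 in Panc89, 2 to 4 for the difference, 4 between parental, 4 to 8 between Holoclone and 3 to 6 between Paraclone cells, and against parental cells 1 to 2 and 1 to 2 in Panc1, 2 to 5 (Holoclone) and 1 to 7 (Paraclone) in Panc89. Calls over all 16093 genes then ran from 4763 to 5808 in Panc1, 4549 to 6600 in Panc89 and 4806 to 6072 for the difference. They ran from 9863 to 10241 between parental, 9756 to 10559 between Holoclone and 8915 to 9861 between Paraclone cells. Against parental cells they ran from 1061 to 1571 and 3140 to 4323 in Panc1, and from 2972 to 4319 and 2116 to 4249 in Panc89. Replicate numbers share no stated origin; taking that number as a block inside a line, 1 gene was called between Panc89 Paraclone and parental cells (2693 of all genes), and the correlations of same-numbered libraries averaged −0.0418 over 18 pairs. Without counts, the precision of genes near 0, CCND2 in Panc1 above all, cannot be given.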
